A study of Caenorhabditis elegans with 6 samples.

Results

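The core of the insulin receptor pathway was examined as 9 genes: daf-2, ist-1, age-1, aap-1, daf-18, pdk-1, akt-1, akt-2 and daf-16. They were chosen by name from textbook knowledge of the pathway, with earlier results of these data known. All 9 were found among the 45132 gene IDs of each library. RNA came from whole Caenorhabditis elegans of the wild-type strain N2, kept at 20 °C. As larvae the worms ate bacteria that either silence vit-5, a yolk protein gene, by RNA interference (RNAi) or carry the control vector L4440. Young adults of both groups then moved to OP50 bacteria, and worms were harvested as 5-day-old adults, giving 3 control RNAi and 3 vit-5 RNAi libraries. The labels name no mutant or transgene, and the control worms differ from untreated N2 by having eaten the control RNAi bacteria. The labels do not say whether replicates were separate cultures, so a p-value here reflects spread among the 6 libraries alone, and that spread may be technical.

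In the worm, insulin-like peptides bind the receptor DAF-2. The receptor activates the phosphoinositide 3-kinase AGE-1, whose lipid product brings PDK-1 and the AKT kinases to the membrane, and the AKT kinases phosphorylate the FOXO transcription factor DAF-16 and hold it in the cytoplasm. DAF-18 removes the lipid that AGE-1 makes. Low DAF-2 signalling is known for long life, dauer entry and stress resistance, and it is also known to lower yolk protein gene expression in the intestine. In RNA from whole animals, fewer cells of a type and less RNA per cell cannot be told apart.

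Each library gave 1 FPKM value per gene (fragments of a gene's transcripts, corrected for transcript length and library size). No read counts were among the files, so the depth behind a value is unknown and no counting interval is given. The targeted transcript, vit-5, stood at 2335, 1396 and 1573 FPKM in the control libraries and at 116, 51.6 and 22.8 FPKM after vit-5 RNAi. Most genes had somewhat higher FPKM after vit-5 RNAi: over the 12908 genes tested, the median log2 fold change was 0.34, and 79.5% of genes lay above 0. Fold changes below are therefore given also after median-of-ratios scaling, a rescaling of each library to the median gene, which brings that median to 0.03. Marker lists for tissues showed that libraries differed within groups. Summed FPKM of 8 larval or molting epidermis markers ran from 160 to 582 with L4440 and from 202 to 819 after vit-5 RNAi, and that of 8 germline and oocyte markers from 3298 to 4265 and from 2088 to 3724. Sums of 8 neuron markers (697 to 797 and 662 to 825 FPKM), 6 intestine markers (4057 to 4569 and 4149 to 4661) and 6 body wall muscle markers (722 to 1274 and 773 to 1505) overlapped between the groups. In these lists 0 genes were at 0 in every library. The 4 sperm markers summed to at most 1.10 FPKM with L4440 and 1.47 after vit-5 RNAi, none reached the expression filter, and sperm transcripts were thus near 0 in these adults.

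The 9 transcripts covered a wide span of abundance. Since FPKM is divided by transcript length, levels can be compared between genes, though only roughly where a gene has several transcripts. For such genes the length used is not stated, and the transcripts of daf-2 run from 2019 to 7325 bases. The phosphatase gene daf-18 was the most abundant, at 65.1 FPKM over the 6 libraries, and akt-1 followed at 53.8. Next came daf-16 at 22.7, aap-1 at 21.5, age-1 at 11.8, akt-2 at 10.04 and pdk-1 at 9.16 FPKM. The receptor gene daf-2 stood at 5.19 FPKM and ist-1 at 1.45 FPKM. Among all tested genes, daf-18 lay at the 82.8th percentile of mean FPKM and daf-2 at the 29.4th. The receptor transcript was thus below that of every kinase and phosphatase of the core in mean FPKM. The nearest of these, pdk-1, exceeded it by ratios of 1.09 to 3.64 over the 6 libraries. Neighbours in the order were not all separable. The value of daf-18 exceeded that of akt-1 in 6 of 6 libraries but by ratios of only 1.03 to 1.31. The order of daf-16 over aap-1 held in 4 of 6 libraries, that of age-1 over akt-2 in 5 and that of akt-2 over pdk-1 in 3, so these pairs did not differ beyond their spread. The steps from akt-1 to daf-16, from aap-1 to age-1, from pdk-1 to daf-2 and from daf-2 to ist-1 held in all 6 libraries.

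**Figure D1:**
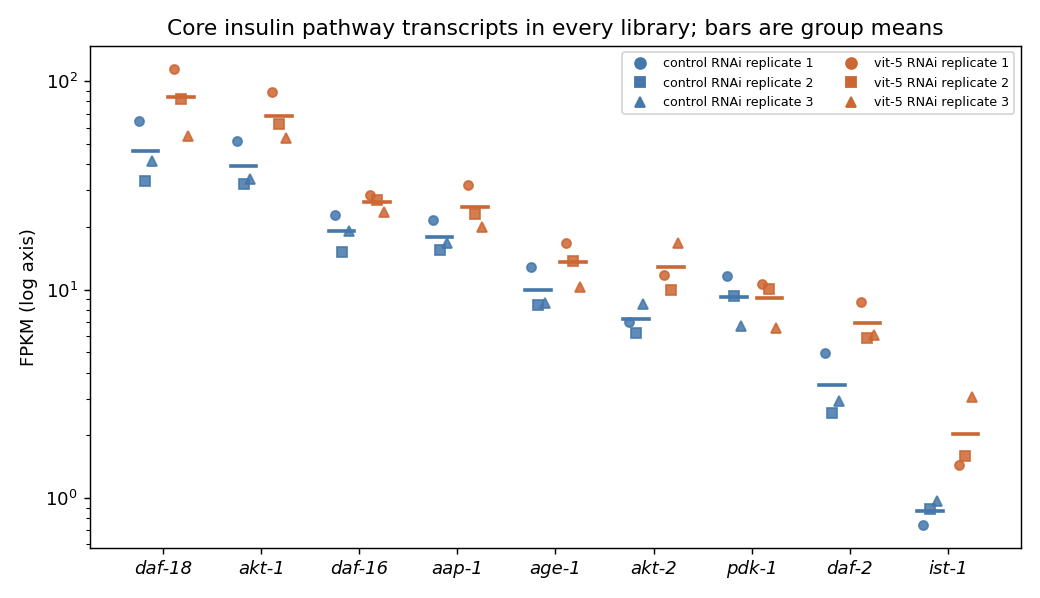
FPKM of the 9 transcripts (log axis), ordered by mean level, in 3 control RNAi and 3 vit-5 RNAi libraries; symbols mark the replicate number and bars the group means. The vit-5 RNAi points of daf-2, ist-1, akt-1, akt-2 and daf-16 all lie above their control points, and those of pdk-1 overlap them.

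The receptor gene daf-2 (gene ID 175410; WBcel235, chromosome III, 2994514 to 3040846, minus strand) spans 46333 bases, with 7 annotated transcripts. It held 4.96, 2.56 and 2.94 FPKM in the control libraries and 8.73, 5.89 and 6.05 FPKM after vit-5 RNAi. All 3 vit-5 RNAi values exceeded every control value. The means were 3.48 ± 1.29 and 6.89 ± 1.60 FPKM (SD, n = 3 each), with a log2 fold change of log2(FPKM + 1) of 0.83 (SE 0.28, 95% interval 0.19 to 1.48). The limma adjusted p over all tested genes was 0.133, which did not pass 0.05. After median-of-ratios scaling the groups still did not overlap, at 3.23 to 5.10 and 5.28 to 7.49, and the log2 fold change was 0.54 (95% interval -0.0049 to 1.09, limma adjusted p 0.238).

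The gene ist-1 (gene ID 180978; X, 7126648 to 7139666, plus strand) encodes an insulin receptor substrate homologue, an adaptor of the receptor. Its control libraries held 0.744, 0.887 and 0.970 FPKM and its vit-5 RNAi libraries 1.44, 1.59 and 3.04 FPKM. The groups did not overlap, and vit-5 RNAi replicate 3 stood well above the other vit-5 RNAi libraries. The expression filter, at least 1 FPKM in at least 3 libraries, admitted ist-1 through its vit-5 RNAi values only. Its log2 fold change was 0.66 (SE 0.25, limma adjusted p 0.148), and 0.45 after median-of-ratios scaling. The pseudocount weighs on so low a transcript: with 0.1 in place of 1, the log2 fold change was 1.07. Without vit-5 RNAi replicate 3 it was 0.43.

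The phosphoinositide 3-kinase has a catalytic subunit, AGE-1, and an adaptor subunit, AAP-1. Both transcripts were somewhat higher after vit-5 RNAi, with groups that overlapped. For age-1 (gene ID 174762; II, 11519328 to 11527054, minus strand) the controls held 12.9, 8.47 and 8.61 FPKM, while the vit-5 RNAi group held 16.8, 13.7 and 10.3 FPKM. For aap-1 (gene ID 172141; I, 5107843 to 5110183, plus strand) the values were 21.7, 15.6 and 16.7 FPKM with L4440 and 31.8, 23.0 and 20.1 FPKM after vit-5 RNAi. In both genes replicate 1 was the highest library of its group. The log2 fold changes, 0.41 (SE 0.26, limma adjusted p 0.332) for age-1 and 0.44 (SE 0.24, limma adjusted p 0.259) for aap-1, were close to the 0.34 of the median gene, and after median-of-ratios scaling they were 0.08 and 0.09. That of age-1 was -0.06 after quantile scaling.

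The opposing phosphatase gene daf-18 (gene ID 176869; IV, 420011 to 425177, minus strand) held 64.5, 33.3 and 41.3 FPKM with L4440 and 115, 82.0 and 54.9 FPKM after vit-5 RNAi. The groups overlapped, since vit-5 RNAi replicate 3 lay below control replicate 1. The means were 46.4 ± 16.2 and 83.9 ± 30.05 FPKM (SD, n = 3 each), the widest spread of the 9 genes in FPKM. Its log2 fold change was 0.83 (SE 0.32, 95% interval 0.10 to 1.56, limma adjusted p 0.153), and 0.48 after median-of-ratios scaling (95% interval -0.20 to 1.16).

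The kinase PDK-1 phosphorylates and activates the AKT kinases. Its gene, pdk-1 (gene ID 180475; X, 1321344 to 1327986, plus strand), held 11.7, 9.31 and 6.71 FPKM with L4440 and 10.6, 10.1 and 6.58 FPKM after vit-5 RNAi. The groups overlapped throughout. The means were 9.23 ± 2.48 and 9.08 ± 2.18 FPKM (SD, n = 3 each), giving a log2 fold change of -0.02 (SE 0.28) with a 95% interval of -0.66 to 0.62. The limma adjusted p was 0.975, which does not show the levels to be equal. The value depended on the scaling, at -0.34 after median-of-ratios (95% interval -0.96 to 0.28, limma adjusted p 0.489), -0.41 after upper-quartile and -0.48 after quantile scaling. It was the only member with a log2 fold change below 0, and 19.3% of tested genes had a lower one. As deposited, its sign turned when a library was left out. Leaving out control replicate 1 gave 0.15, leaving out control replicate 2 gave 0.0036, and 0.18 resulted when vit-5 RNAi replicate 3 was left out.

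The AKT kinases are encoded by akt-1 (gene ID 179424; V, 10248905 to 10252845, plus strand) and akt-2 (gene ID 181524; X, 14147700 to 14152070, plus strand). The controls held 52.0, 32.3 and 33.98 FPKM of akt-1, while the vit-5 RNAi group held 88.4, 62.4 and 53.5 FPKM. All vit-5 RNAi values were above all controls, the lowest by a small margin. The means were 39.4 ± 10.9 and 68.1 ± 18.1 FPKM (SD, n = 3 each), giving a log2 fold change of 0.77 (SE 0.25, 95% interval 0.19 to 1.36, limma adjusted p 0.131). For akt-2 the controls held 6.998, 6.19 and 8.51 FPKM, while the vit-5 RNAi group held 11.8, 9.99 and 16.8 FPKM, again without overlap. The means were 7.23 ± 1.181 and 12.9 ± 3.54 FPKM (SD, n = 3 each), giving a log2 fold change of 0.73 (SE 0.25, 95% interval 0.15 to 1.32, limma adjusted p 0.138). After median-of-ratios scaling the groups overlapped for both genes, with log2 fold changes of 0.42 and 0.40. The genes shared the direction but not the order of libraries: akt-1 was highest in replicate 1 of each group and akt-2 in replicate 3 of each group.

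At the end of the pathway, daf-16 (gene ID 172981; I, 10750498 to 10776703, plus strand) encodes the FOXO factor, with 11 annotated transcripts. It held 22.8, 15.2 and 19.2 FPKM with L4440 and 28.4, 26.996 and 23.6 FPKM after vit-5 RNAi, with control replicate 1 just below vit-5 RNAi replicate 3. The means were 19.1 ± 3.78 and 26.3 ± 2.51 FPKM (SD, n = 3 each), giving a log2 fold change of 0.46 (SE 0.21, 95% interval -0.02 to 0.94, limma adjusted p 0.196). After median-of-ratios scaling it was 0.11 and the groups overlapped. Each library gave 1 value for the gene, combined over transcripts in a way the sources do not state, and the isoforms of daf-16 and of daf-2 cannot be told apart.

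Over the whole core, 0 of 9 genes passed the limma adjusted threshold of 0.05, as did 0 of the 12908 genes tested, a background of 0%. Before adjustment, 3378 tested genes with higher and 117 with lower values after vit-5 RNAi had a limma p under 0.05. Among the members there were 5, all higher (daf-2, ist-1, daf-18, akt-1 and akt-2), against a background of 26.2% of tested genes higher and 0.906% lower. Leaving aside ist-1, which the filter admitted through its vit-5 RNAi values only, there were 4 of 8. The groups did not overlap for 5 members (daf-2, ist-1, akt-1, akt-2 and daf-16, or 4 of 8 without ist-1), against 30.8% of tested genes that were higher without overlap. With 8 of 9 above 0 (7 of 8 without ist-1), the direction was that of 79.5% of tested genes. After median-of-ratios scaling 0 members had an unadjusted limma p under 0.05, against backgrounds of 9.29% higher and 11.9% lower, and daf-2 and ist-1 were higher without overlap, against 14.5%. Leaving aside ist-1, daf-2 was the only such member. The log2 fold change stayed above 0 in 8 members (7 of 8 without ist-1), against 52.7%. Upper-quartile scaling likewise left 0 members at an unadjusted limma p under 0.05, and quantile scaling left akt-1. The 5 members rested on the set of libraries: as deposited, leaving out control replicate 2 left 0 of them at an unadjusted limma p under 0.05. Leaving out control replicate 3 left 1 (akt-2), and leaving out vit-5 RNAi replicate 1 left 2 (ist-1 and akt-2). Beside these values, 0 of the 8 germline and oocyte markers lay above 0, with a median log2 fold change of -0.15 as deposited and -0.51 after median-of-ratios scaling. The part of germline content in the members' values was not tested.

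**Figure D2:**
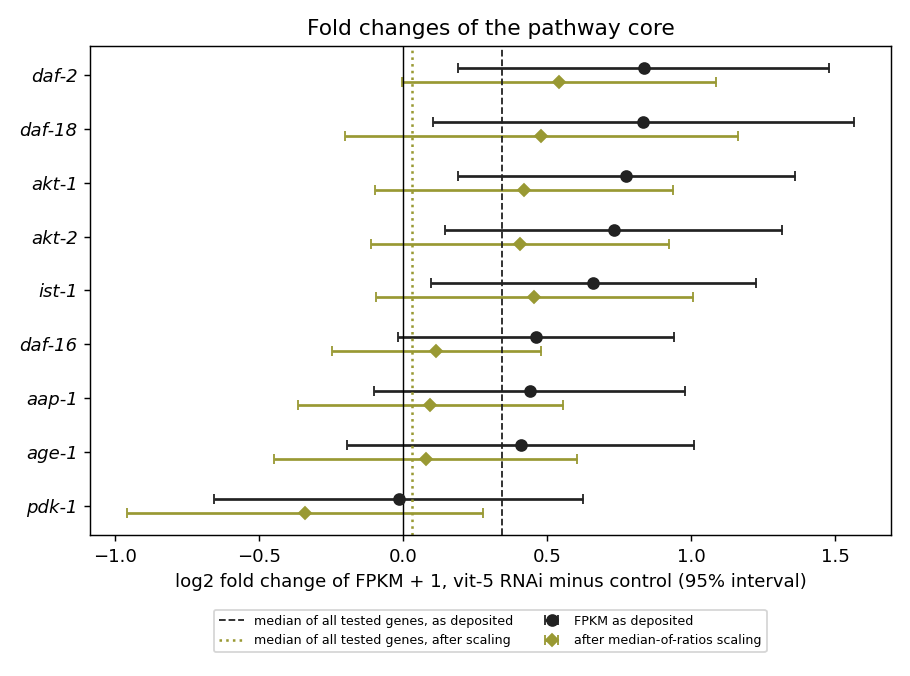
Log2 fold changes of the 9 genes (vit-5 RNAi minus control, on log2 of FPKM + 1) with 95% intervals from limma, as deposited and after median-of-ratios scaling; vertical lines mark the medians of all tested genes, 0.34 and 0.03. The intervals of daf-2, daf-18, akt-1, akt-2 and ist-1 lie above 0 as deposited, and all 9 include 0 after scaling.

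Ratios of 2 members within a library are not altered by a scaling that multiplies a library by 1 factor, as median-of-ratios and upper-quartile scaling do. Quantile scaling is not of that kind, and the ratios were not recomputed under it. The catalytic to adaptor ratio, age-1 to aap-1, had the smallest spread of the 7 within the vit-5 RNAi group, though not among controls, at 0.594, 0.544 and 0.516 with L4440 and 0.527, 0.596 and 0.514 after vit-5 RNAi. The groups overlapped (exact 2-sided permutation p 0.8). The receptor to phosphatase ratio, daf-2 to daf-18, ran from 0.0712 to 0.0769 with L4440 and stood at 0.0760 and 0.0718 in 2 vit-5 RNAi libraries, with 0.110 in vit-5 RNAi replicate 3 (exact p 0.8).

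A set of 3 of the 7 ratios separated the groups, and the share of all gene pairs that do so was not counted. The ratio of pdk-1 to akt-1 was 0.225, 0.288 and 0.198 with L4440 and 0.120, 0.162 and 0.123 after vit-5 RNAi, a log2 difference of -0.81. The kinase to phosphatase ratio, age-1 to daf-18, was 0.200, 0.254 and 0.209 with L4440 and 0.146, 0.167 and 0.188 after vit-5 RNAi, a log2 difference of -0.40. The ratio of daf-2 to daf-16 was 0.218, 0.168 and 0.153 with L4440 and 0.307, 0.218 and 0.257 after vit-5 RNAi, a log2 difference of 0.54, with control replicate 1 (0.2177) and vit-5 RNAi replicate 2 (0.2182) almost equal. With a pseudocount of 0.1 this separation was lost (exact 2-sided permutation p 0.2), while those of pdk-1 to akt-1 and age-1 to daf-18 held. Without a pseudocount each of the 3 had an exact 2-sided permutation p of 0.1, the smallest that 3 libraries against 3 can give, and 0.233 after adjustment over the 7 ratios, so none passed. With 3 libraries a group, a ratio cannot pass a threshold of 0.05 by this test. The ratio of daf-2 to ist-1 overlapped between the groups, from 2.89 to 6.66 with L4440 and from 1.99 to 6.05 after vit-5 RNAi (exact p 0.9).

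The ratio of akt-1 to akt-2 varied more within the groups than between them. It was 7.42, 5.22 and 3.99 with L4440 and 7.51, 6.24 and 3.18 after vit-5 RNAi, and the exact 2-sided permutation p was 1. In all 6 libraries akt-1 was the more abundant. The libraries fell along this ratio in nearly the reverse order of the summed larval or molting epidermis markers, which stood at 160, 520 and 582 FPKM with L4440 and 202, 263 and 819 FPKM after vit-5 RNAi. The exception was replicate 1 of each group, whose places were exchanged. Most of the change in this sum came from rol-6 (3.15 to 202 FPKM) and dpy-13 (5.92 to 350 FPKM). Another gene of the list, sqt-3, was highest in replicate 1 of each group. Body wall muscle markers had the same order of libraries as the epidermis markers, at 722, 932 and 1274 FPKM with L4440 and 773, 883 and 1505 FPKM after vit-5 RNAi. Neuron markers, at 697, 714 and 797 FPKM with L4440 and 662, 762 and 825 FPKM after vit-5 RNAi, were in the reverse order of the ratio but for replicate 2 of each group, whose places were exchanged. Most of the neuron sum was snb-1 (530 to 626 FPKM), and unc-119 was highest in replicate 1 of each group. Germline and oocyte markers ran nearly the other way, at 4265, 3298 and 3410 FPKM with L4440 and 3724, 3686 and 2088 FPKM after vit-5 RNAi. Intestine markers, at 4139, 4057 and 4569 FPKM with L4440 and 4149, 4548 and 4661 FPKM after vit-5 RNAi, followed the reverse order of the ratio only in part. Their lowest sum was in control replicate 2. To differing degrees these sums move with the ratio across the same 6 libraries, and their part in it was not tested.

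**Figure D3:**
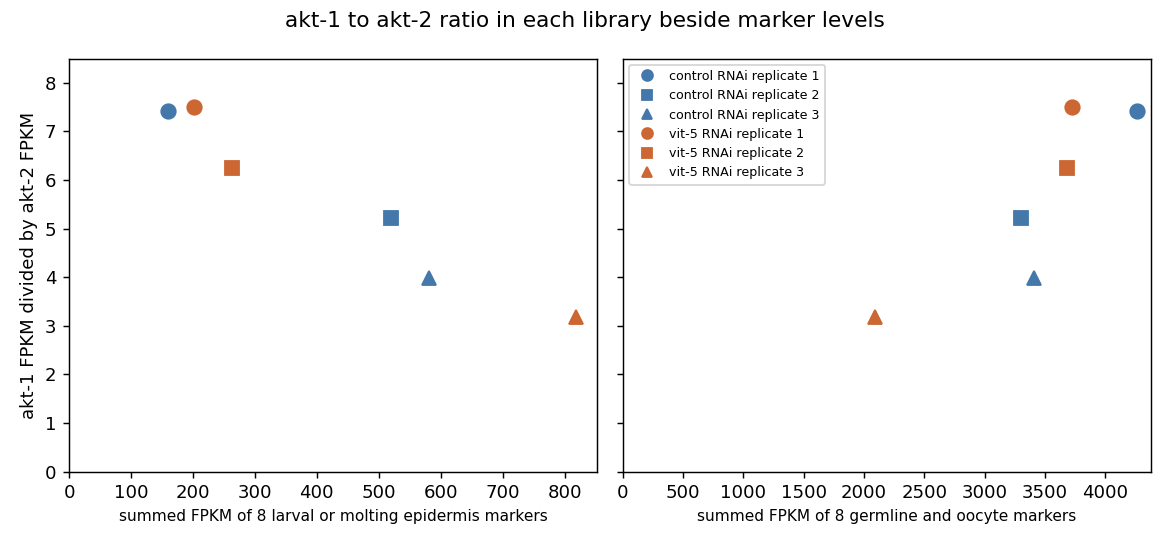
Ratio of akt-1 to akt-2 FPKM in each of the 6 libraries against the summed FPKM of 8 larval or molting epidermis markers (left) and of 8 germline and oocyte markers (right); colours mark the group and symbols the replicate. The ratio goes from 7.42 to 3.18 as the epidermis sum goes from 160 to 819 FPKM, with libraries of both groups interleaved. Most of the change in that sum comes from rol-6 and dpy-13.

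The members split in the same way when each was set against the mean of its own group after median-of-ratios scaling. In replicate 1 of both groups daf-2, age-1, aap-1, daf-18, akt-1, daf-16 and pdk-1 lay above their group mean, by 0.07 (daf-16 after vit-5 RNAi) to 0.47 (daf-18 after vit-5 RNAi) on the log2 scale. In replicate 3 of both groups those 7 lay below it, down to -0.55 for daf-18 and -0.42 for pdk-1. The genes ist-1 and akt-2 did the reverse, with 0.43 and 0.38 in vit-5 RNAi replicate 3. The share of all tested genes with either pattern was not counted, so the split is not shown to be particular to the members. Pearson's r over the 6 libraries is given as a description, from log2(FPKM + 1) as deposited and not centred on the groups. It thus also holds the shift between groups. It was 0.94 between ist-1 and akt-2, and 0.96 to 0.98 among age-1, aap-1, daf-18 and akt-1. It was -0.46 between akt-2 and pdk-1. All members share libraries and scaling, so these values carry no test. The replicate 3 libraries are also those highest in the summed epidermis and muscle markers of each group, and replicate 1 those lowest.

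**Figure D4:**
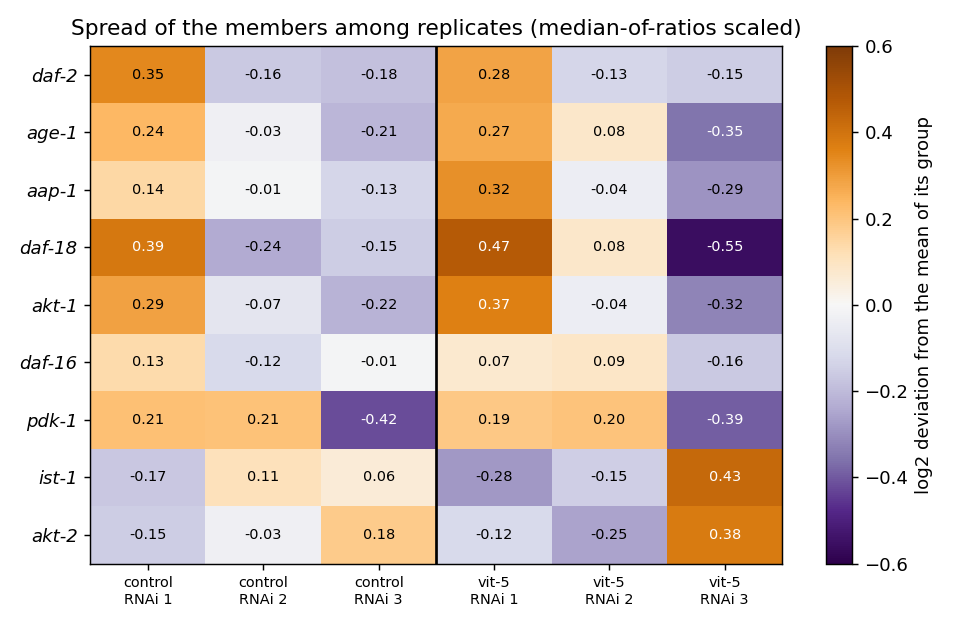
Log2 deviation of each member from the mean of its group in each library, after median-of-ratios scaling, as colour and number (rows are genes, columns libraries). In both groups 7 genes are above 0 in replicate 1 and below 0 in replicate 3, while ist-1 and akt-2 are below 0 in replicate 1 and above 0 in replicate 3. The share of all tested genes with either pattern was not counted.

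Many other genes followed the members closely over these 6 libraries. For daf-2, 12.2% of the tested genes had r above 0.95 over the 6 libraries, for age-1 8.07%, for akt-1 13.2% and for daf-16 5.72%. The closest to daf-2 were ZK546.2, mel-26, a substrate adaptor of a ubiquitin ligase, and rrf-1, an RNA-directed RNA polymerase of the RNAi pathway. Closest to age-1 were ifa-3, an intermediate filament gene, exos-3, an exosome subunit, and panl-2, a deadenylase subunit. Nearest to akt-1 were rskd-1, let-502 and vps-33.2, a vesicle tethering gene. Those nearest to daf-16 were ceh-79, a homeobox gene, pigk-1 and C13B4.1. Their r with the member was 0.9957 to 0.9999.

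The annotated neighbourhood of the members was checked, since strandedness of the libraries is not given and reads of overlapping genes could be shared. The exons of aap-1 share 136 of 1806 bases with the opposite-strand gene Y110A7A.21, which stood at 10.2 to 23.5 FPKM. Those of age-1 share 192 of 3929 bases with B0334.10, at no more than 0.454 FPKM. The gene akt-1 shares 8 bases with rop-1, pdk-1 shares 15 with F21E9.2, and daf-16 shares 84 of 3685 exonic bases with a non-coding antisense gene at no more than 0.295 FPKM. The exons of daf-2, ist-1, daf-18 and akt-2 share no base with another annotated gene.

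Around the core, a list of 24 kinases, phosphatases and adaptors of neighbouring branches was read from the same fit. All 24 had log2 fold changes above 0, beside 79.5% of tested genes, with a median of 0.62 beside 0.34. After median-of-ratios scaling 18 lay above 0, beside 52.7%, with a median of 0.29 beside 0.03. By limma, 0 passed the adjusted threshold, and 11 had an unadjusted p under 0.05, all higher, beside the background of 26.2%. After median-of-ratios scaling these were 7, beside 9.29%. The smallest p-values were those of cst-2, a Hippo-type kinase related to a kinase that acts on DAF-16, at 6.01 ± 1.47 FPKM with L4440 and 13.7 ± 1.57 after vit-5 RNAi. The inositol phosphatase gene inpp-1 followed at 1.04 ± 0.25 and 2.79 ± 0.56 FPKM, and vps-34, the class III phosphoinositide 3-kinase, at 7.85 ± 0.65 and 14.0 ± 1.07 FPKM (SD, n = 3 each). Their limma adjusted p was 0.122. The most abundant were let-92, the catalytic subunit of protein phosphatase PP2A (198 ± 30.1 and 208 ± 22.7 FPKM), the Ras gene let-60 (64.6 ± 16.3 and 98.1 ± 1.31 FPKM) and the ERK gene mpk-1 (68.6 ± 18.04 and 75.8 ± 17.8 FPKM; SD, n = 3 each), and after median-of-ratios scaling let-92 and mpk-1 had log2 fold changes of -0.29 and -0.21. The kinase gene sgk-1, which acts beside the AKT kinases and was picked here after its values were seen, had the same order of libraries as akt-2, with 9.25, 6.16 and 11.1 FPKM with L4440 and 15.005, 11.7 and 19.2 FPKM after vit-5 RNAi. From the same list vps-34, aak-2 and kgb-1 also had that order, so it was not particular to sgk-1. The share of all tested genes with that order was not counted.

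Of 26 genes whose products act on DAF-16, 20 passed the expression filter. Of these, 15 had log2 fold changes above 0, beside 79.5% of tested genes, with a median of 0.50 (0.19 after median-of-ratios scaling). An unadjusted limma p under 0.05 was found for 7, all higher, beside 26.2% of tested genes, while 0 passed the adjusted threshold. After median-of-ratios scaling 3 were higher (sir-2.1, lin-14 and tcer-1) and 2 lower (par-5 and prmt-1) at an unadjusted limma p under 0.05, beside 9.29% and 11.9% of tested genes. The deacetylase gene sir-2.1 stood at 10.3 ± 2.21 and 22.8 ± 5.90 FPKM, tcer-1, a transcription elongation factor, at 11.99 ± 3.80 and 23.0 ± 5.17 FPKM, and lin-14, a heterochronic regulator, at 5.59 ± 0.88 and 11.4 ± 1.85 FPKM (SD, n = 3 each; limma adjusted p 0.122 to 0.124). The most abundant, par-5 and prmt-1, had lower values after vit-5 RNAi. The 14-3-3 gene par-5, whose protein binds phosphorylated DAF-16, held 1796, 1910 and 1893 FPKM with L4440 and 1600, 1624 and 1441 FPKM after vit-5 RNAi. The arginine methyltransferase gene prmt-1 held 676, 713 and 704 FPKM and 560, 645 and 452 FPKM. In both all vit-5 RNAi values lay below all controls, beside a background of 3.15% of tested genes, with log2 fold changes of -0.26 and -0.35 (limma adjusted p 0.201 and 0.192). After median-of-ratios scaling these were -0.63 and -0.71, and 16.2% of tested genes were then lower without overlap. The other 14-3-3 gene, ftt-2, had 581 ± 56.2 and 577 ± 67.6 FPKM (SD, n = 3 each), with overlapping groups.

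The 14 transcription factors known to act with DAF-16 were all tested. Log2 fold changes lay above 0 for 13, beside 79.5% of tested genes, with a median of 0.51, and for 11 after median-of-ratios scaling, beside 52.7%, with a median of 0.17. Before adjustment 6 had a limma p under 0.05, all higher, beside 26.2% of tested genes, and 0 passed the adjusted threshold. After median-of-ratios scaling 3 were higher (pha-4, elt-3 and nhr-49) and 1 (mxl-2) lower at that level, beside 9.29% and 11.9%. The zinc finger gene pqm-1, whose product is known to leave the nucleus when DAF-16 enters, stood at 33.9 ± 5.67 and 57.2 ± 8.16 FPKM. The FoxA gene pha-4 stood at 8.07 ± 0.93 and 15.1 ± 2.68 FPKM, and the nuclear receptor gene nhr-49 at 28.1 ± 5.62 and 45.7 ± 3.26 FPKM (SD, n = 3 each), all 3 without overlap and with a limma adjusted p of 0.122. These 3 had the smallest p of the list, in which 9 of 14 were higher without overlap, beside 30.8% of tested genes. After median-of-ratios scaling the groups of pqm-1 overlapped, while those of pha-4 and nhr-49 did not. The most abundant factors overlapped between groups: the bZIP gene zip-2 (235.5 ± 48.2 and 268 ± 92.4 FPKM), the Max-like gene mxl-2 (162 ± 7.17 and 139 ± 21.9) and the Nrf-like gene skn-1 (54.1 ± 10.6 and 64.7 ± 8.63; SD, n = 3 each).

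Genes known as targets of DAF-16 had values on both sides of 0. The list was not split by whether DAF-16 raises or lowers a gene, so its counts and median are no measure of DAF-16 activity. Of 32 listed, 29 were tested and 24 lay above 0, beside 79.5% of tested genes, with a median log2 fold change of 0.20 beside the 0.34 of all genes. The median was -0.16 after median-of-ratios and -0.24 after upper-quartile scaling but 0.15 after quantile scaling, so its sign depended on the scaling. Before adjustment 5 had a limma p under 0.05, all higher (mtl-1, hsp-12.6, nnt-1, cpt-5 and cdr-2), which is 5 of 29 beside a background of 26.2%, and 0 passed the adjusted threshold. After median-of-ratios scaling 4 were higher (mtl-1, hsp-12.6, nnt-1 and cpt-5) and 1 lower (sip-1) at that unadjusted level, beside 9.29% and 11.9% of tested genes. The metallothionein gene mtl-1 held 476, 343 and 255 FPKM with L4440 and 926, 744 and 585 FPKM after vit-5 RNAi, a log2 fold change of 1.09 (SE 0.25) and a limma adjusted p of 0.122. The cadmium-responsive gene cdr-2 stood at 62.3 ± 5.95 and 98.8 ± 8.19 FPKM, and cpt-5, a carnitine palmitoyltransferase gene, at 1.60 ± 0.97 and 4.13 ± 1.12 FPKM (SD, n = 3 each). The small heat shock gene sip-1 had lower values after vit-5 RNAi, at 7500, 8247 and 8237 FPKM with L4440 and 6982, 6685 and 4262 FPKM after vit-5 RNAi, with a limma adjusted p of 0.187. The lysozyme gene lys-7 overlapped between groups, at 2255 ± 998 and 2282 ± 848 FPKM (SD, n = 3 each). The superoxide dismutase gene sod-3, the usual reporter of DAF-16 activity, named here for that use, overlapped too, at 21.5, 16.3 and 23.3 FPKM with L4440 and 24.7, 17.1 and 43.9 FPKM after vit-5 RNAi.

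Within the forkhead family of 15 listed genes, 14 were tested. The most abundant was fkh-9, followed by daf-16. The former stood at 23.3 ± 6.68 and 30.9 ± 2.34 FPKM (SD, n = 3 each). Of the 14, 13 had log2 fold changes above 0, beside 79.5% of tested genes, with a median of 0.37, and 10 after median-of-ratios scaling, beside 52.7%, with a median of 0.10. The exception as deposited was lin-31, a vulval cell fate gene, at 1.53 ± 0.37 and 0.74 ± 0.23 FPKM, whose vit-5 RNAi values were all below its controls (log2 fold change -0.54, limma adjusted p 0.159). The vit-5 RNAi values were higher without overlap for 5 of the 14 (fkh-7, let-381, pha-4, unc-130 and daf-16), beside 30.8% of tested genes. Of these, 2 (pha-4 and unc-130) had an unadjusted limma p under 0.05, beside 26.2%. The FoxD gene unc-130 stood at 2.72 ± 0.57 and 4.75 ± 0.55 FPKM (SD, n = 3 each; limma adjusted p 0.141).

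**Figure D5:**
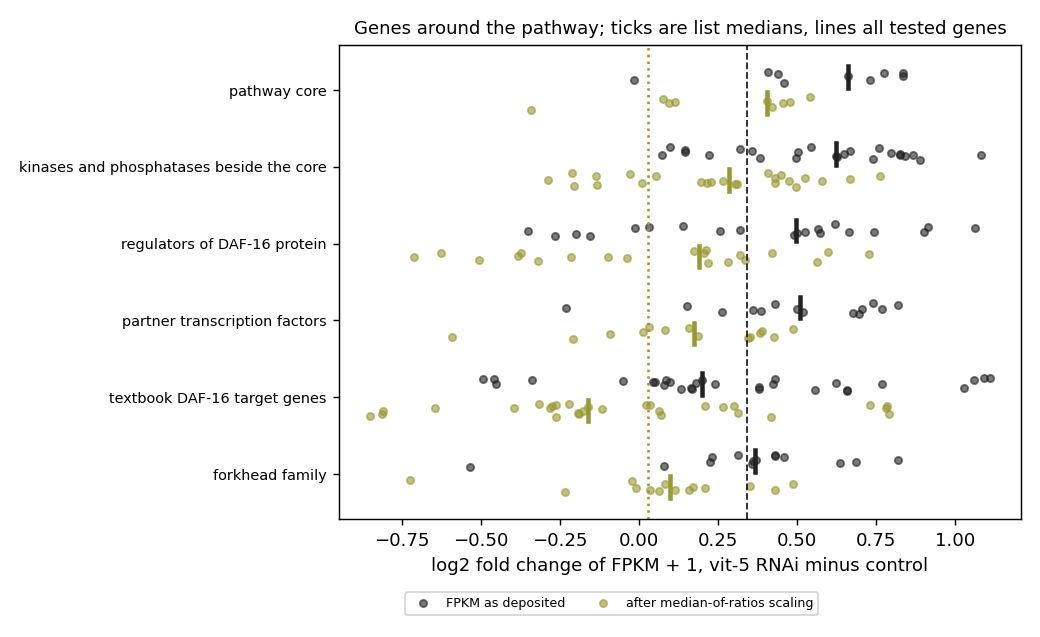
Log2 fold changes (vit-5 RNAi minus control, on log2 of FPKM + 1) of the tested genes in the pathway core and in 5 lists around it, as deposited and after median-of-ratios scaling; thick ticks are list medians and vertical lines the medians of all tested genes. The list medians are lowest for DAF-16 targets, at 0.20 as deposited and -0.16 after scaling. That list was not split by whether DAF-16 raises or lowers a gene. The core's medians of 0.66 and 0.40 become 0.60 and 0.26 without ist-1, beside 0.62 and 0.29 for the kinases and phosphatases.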

How the data were processed

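Each deposited table holds FPKM for every gene of 1 library, per the file headers. Of tools and builds, Bowtie2 2.2.3, HTSeq 0.6.1, DESeq 1.18.0, TopHat, TopHat2 2.0.12 and WBcel235 appear in the submitters' processing notes, without roles. Which program gave the FPKM is not stated there. Of IDs with several transcripts, 93.8% had values with more than 6 decimals, against 0.2% of those with 1, so transcripts were combined in a way the sources do not state. The members and lists were chosen with earlier results of these data known. Symbols and coordinates came from a RefSeq gene table of WBcel235 (45010 of 45132 IDs matched), and transcripts and overlaps from the Ensembl annotation of that build. The 12908 genes that reached 1 FPKM in 3 or more libraries were fitted as log2(FPKM + 1) with limma 3.58.1 in R 4.3.3, with group as the only term, a mean-variance trend and Benjamini-Hochberg adjustment over all tested genes. Differences are taken as vit-5 RNAi minus control RNAi on that scale, which understates changes of low genes. Tests are 2-sided. The procedure was tested on simulated data, with 50 changed genes at each size. It recovered 0% of log2 changes of 0.5, 26% of those of 1, 92% of those of 2 and 98% of those of 3. Of 12708 unchanged genes, 4 were called. The changed genes were drawn only from those with a control mean of log2(FPKM + 1) above 3. The genes daf-2 and ist-1 lay below that range. Noise was drawn independently for each gene and library, so shifts shared by many genes were not simulated, and recovery in the real data may differ. In the main fit vit-5 itself had a log2 fold change of -5.03 and a limma adjusted p of 0.0552. A gene that did not pass is thus not shown to be unchanged. Within-library ratios were compared by exact permutation. Pearson's r between libraries was 0.927 to 0.989 within groups, and at most 0.0697% of tested genes had equal values in any pair. The genes named around the core are, for each list, the 3 most abundant and the 3 with the smallest p, and others are marked as picked later or counted by name. For daf-2, age-1, akt-1 and daf-16 the 3 genes with the highest r are named. Alternatives were a pseudocount of 0.1, no filter, 3 scalings, protein-coding genes only, the replicate number as a block and leaving out each library. Figures used matplotlib 3.10.9 in Python 3.11.15. No sequence of a member is shown.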

Additional observations from a re-analysis of the deposited data

How the results depend on the processing

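All 9 members kept a limma adjusted p above 0.05 without a filter, with a pseudocount of 0.1, under the 3 scalings, with protein-coding genes only and without any 1 library. The signs of daf-2, ist-1, aap-1, daf-18, akt-1, akt-2 and daf-16 held under all of these, while age-1 was -0.058 under quantile scaling and pdk-1 ran from -0.21 to 0.18 on leaving out 1 library. Log2 fold changes ranged from 0.38 to 1.06 for daf-2, 0.41 to 1.10 for daf-18, 0.35 to 0.99 for akt-1 and 0.30 to 0.88 for akt-2. The count of all tested genes past the adjusted threshold, 0 as deposited, was 2 with protein-coding genes only and 0 to 5 on leaving out 1 library (4 on leaving out vit-5 RNAi replicate 1, and 5 on leaving out replicate 3 of that group). With the replicate number as a block it was 3806, and 5 members passed: daf-2 (limma adjusted p 0.0162), ist-1 (0.0481), daf-18 (0.0148), akt-1 (0.0128) and akt-2 (0.0182), beside 28.5% of tested genes higher. Leaving aside ist-1, 4 of 8 passed. The labels do not say that a number pairs libraries, so the fit without a block was kept as the main one. The deviations of same-numbered libraries correlated at 0.753, 0.0339 and 0.681, and those of differently numbered ones at -0.709 to 0.348. Not every library correlated best with its own number, but these values cannot tell whether the numbers mark a shared batch. On leaving out 1 library, log2 differences of ratios ran from -0.08 to 0.040 for age-1 to aap-1, -0.27 to 0.35 for akt-1 to akt-2, -0.49 to -0.30 for age-1 to daf-18, -0.020 to 0.29 for daf-2 to daf-18, -0.51 to 0.29 for daf-2 to ist-1, -0.95 to -0.66 for pdk-1 to akt-1 and 0.41 to 0.69 for daf-2 to daf-16. Where leaving out a library or a scaling turned a sign or a count, the cause was not tested. The files give no read counts, so counting error cannot be separated from other spread, which weighs most on ist-1 at about 1 FPKM.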
